A study of Mus musculus with 6 samples.

Results

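The rodent KRAB zinc finger cluster genes were chosen by their symbols: Zfp900 to Zfp999 in the authors' deposited table, together with Rex2, Zfp534, Zfp600, Zfp229 and Zfp658. This rule found 57 of the 15095 listed genes. Because these symbols had been picked after fold changes of the same table were known, the fold changes and calls of the members are given here as a description and support no claim about the group. The table compares neural progenitor cells (NPCs) of 2 genotypes, wild type and Setd2-KO, with 3 libraries each, both derived from mouse embryonic stem cells of the HA36CB1 background by 4 days of aggregate culture without and 4 days with 5 uM retinoic acid, and collected at day 8. SETD2 is the enzyme that places H3K36me3 on the bodies of transcribed genes, and the knock-out was already present in the stem cells. PolyA-selected RNA was sequenced in strand-specific libraries. No value per library is in the table, so that fold changes are given without an SD and the spread between the libraries stands only in the authors' p-values. Neither the labels nor the methods say whether the libraries of one genotype came from separate differentiations, nor how many clones the knock-out line represents.

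KRAB zinc finger proteins are DNA-binding repressors. An array of C-terminal zinc fingers reads the DNA, and the N-terminal KRAB domain recruits TRIM28, which brings in the H3K9 methyltransferase SETDB1, HP1 proteins and histone deacetylases. Many of these proteins bind retrotransposons, and their genes lie in clusters that have expanded by duplication, in part separately in rodents, so that neighbours are often near copies of each other. The bodies of such genes are also known to carry H3K9me3 together with H3K36me3.

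Members that lay within 2 Mb of the next one on a chromosome were joined into a cluster where at least 3 came together. Of the 57 members, 14 formed the distal chromosome 4 cluster, 10 lay in a cluster on chromosome 17, 8 on chromosome 2, 5 on chromosome 7 and 3 on chromosome 8, and 17 belonged to none. All 57 IDs were found in GENCODE vM39 on GRCm39. Some names need care, because the second gene that the table lists as Zfp976 is Zfp977 in GENCODE and is called so here, and the ID listed as Zfp658 is named Zfp175 there. GENCODE lists Zfp939 as a pseudogene.

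The distal chromosome 4 cluster spanned 2.7 Mb (chr4:145237287-147932882, GRCm39), with 10 members on the plus strand followed by 4 on the minus strand. Its promoters show how alike these genes are and where they part, and are therefore printed. RefSeq promoters (GRCm38.p6, 250 bases before to 50 after the transcription start) were at hand for 52 members, 11 of them in this cluster. They did not include Zfp990, Zfp991 and Zfp992 of this cluster, nor Zfp934 and Zfp930. In 10 of the 11 promoters the same 15 bases occurred, at positions -164 to -106 from the transcription start, followed in each by the letters ATTGGGCG. The lines give 100 bases from the first base of that word, 5′ to 3′ on the strand of the gene, with both elements in capitals.
Zfp980: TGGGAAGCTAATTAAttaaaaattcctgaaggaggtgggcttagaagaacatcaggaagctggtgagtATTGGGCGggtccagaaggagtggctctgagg
Zfp987: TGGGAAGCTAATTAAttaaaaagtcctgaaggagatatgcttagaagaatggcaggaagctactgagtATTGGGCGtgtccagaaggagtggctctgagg
Zfp600: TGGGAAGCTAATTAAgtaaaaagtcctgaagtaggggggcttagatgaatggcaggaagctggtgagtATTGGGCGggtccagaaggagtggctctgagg
Zfp981: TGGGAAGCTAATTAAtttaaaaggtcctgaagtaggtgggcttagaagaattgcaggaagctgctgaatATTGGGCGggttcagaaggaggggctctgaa
Rex2: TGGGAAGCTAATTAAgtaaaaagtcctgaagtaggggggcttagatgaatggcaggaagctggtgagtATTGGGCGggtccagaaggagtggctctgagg
Zfp982: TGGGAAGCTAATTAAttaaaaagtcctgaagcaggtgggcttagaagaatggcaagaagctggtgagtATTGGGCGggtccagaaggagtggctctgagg
Zfp985: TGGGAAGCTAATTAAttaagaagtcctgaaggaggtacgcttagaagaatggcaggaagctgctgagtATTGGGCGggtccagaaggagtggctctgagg
Zfp979: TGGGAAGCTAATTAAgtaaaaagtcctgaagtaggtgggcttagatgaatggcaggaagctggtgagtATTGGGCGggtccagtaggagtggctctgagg
Zfp534: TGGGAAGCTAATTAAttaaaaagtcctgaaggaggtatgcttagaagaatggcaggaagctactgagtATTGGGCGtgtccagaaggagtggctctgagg
Zfp984: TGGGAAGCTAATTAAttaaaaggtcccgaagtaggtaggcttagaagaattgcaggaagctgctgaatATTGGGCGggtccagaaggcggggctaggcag
On GRCm38.p6 these windows lie on the plus strand at chr4:145670556-145670655 for Zfp980, chr4:146097161-146097260 for Zfp987, chr4:146156692-146156791 for Zfp600 and chr4:146514756-146514855 for Zfp981. Those of Rex2, Zfp982 and Zfp985 follow at chr4:147021715-147021814, chr4:147492266-147492365 and chr4:147553141-147553240. On the minus strand lie the windows of Zfp979 (chr4:147642550-147642649), Zfp534 (chr4:147702638-147702737) and Zfp984 (chr4:147809843-147809942). The capitals are separated by 53 bases in 9 genes and by 54 in Zfp981. The windows of Zfp600 and Rex2 were identical. Over the 36 pairs with equal spacing, the windows differed at 0 to 16 positions, with a median of 8, and Zfp984 differed from the other 8 genes at 13 to 16. Zfp600 and Zfp982 have further annotated starts, whose promoters do not hold the word.

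Among the 11 promoters examined in the cluster, the exception was that of Zfp933, the last member. The 250 bases before its start (chr4:147848419-147848668, minus strand, GRCm38.p6) hold neither of the capitalised elements and are shown for comparison.
Zfp933: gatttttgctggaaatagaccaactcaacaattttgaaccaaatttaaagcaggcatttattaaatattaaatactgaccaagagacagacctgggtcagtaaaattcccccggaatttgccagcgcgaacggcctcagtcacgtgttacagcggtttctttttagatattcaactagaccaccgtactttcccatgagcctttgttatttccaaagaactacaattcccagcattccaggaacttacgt
Aligned over a median of 295 columns, the other 10 promoters were 72.7 to 99.7% identical in their 45 pairs (median 87.5%). The alignments of Zfp933 with each of them reached only a median of 113 columns, with a median identity of 60.2%. The word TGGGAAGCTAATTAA, searched on both strands, was present in 12 of 27025 genes with a RefSeq promoter (0.0444%), all on chromosome 4, and in 0 of the 41 promoters of members outside the cluster. Beyond the members, Gm13212 and Zfp988 carry the word. Gm13212 lies inside the cluster, and Zfp988 is not analysed here. Since the word was found by comparing these very promoters, these counts describe the sequences and name no binding site. The letters of 2 general promoter elements were counted on both strands, and both overlap the element ATTGGGCG printed above: read on the other strand it contains CCAAT, and with a further G it contains GGGCGG. Their counts in the cluster therefore restate that element in part. The CCAAT box (CCAAT) was in 10 of 11 promoters of the cluster, in 32 of 41 of other members and in 41.1% of all genes. The GC box (GGGCGG) was in 8 of 11, 13 of 41 and 38.2%, respectively.

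Across all 57 members, 5 were called upregulated in the Setd2-KO at an FDR under 0.05, where 1.54% of all genes were, and 0 downregulated, where 2.11% were. The authors' test (edgeR's glmTreat) asked whether the absolute log2 fold change exceeds 1, so that a gene with a smaller change cannot be expected to pass. At an unadjusted p under 0.05, 6 members were higher (2.54% of all genes) and 0 lower (3.43% of all genes). Taken as Setd2-KO relative to wild type throughout, log2 fold changes had a median of 0.22 over the members, and of 0.0089 over all genes. The median of the members was 0.030 without those of at least 90% coding identity to another, and -0.055 over those with under 5% of transcript windows shared with a gene elsewhere, a set that keeps 4 of the 14 chromosome 4 members. All 5 calls lay in the distal chromosome 4 cluster, in which 13 of 14 members had values above 0. Its median was 1.08, with a range from -0.05 to 1.95. The 43 members elsewhere had a median of -0.0049 and a range from -1.07 to 1.04, with 21 values above 0 and 22 below. In the authors' test, which changes under 1 cannot be expected to pass, 0 of them had an unadjusted p under 0.05. The difference between the clusters was not tested, as the members were selected on this contrast.

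**Figure D1:**
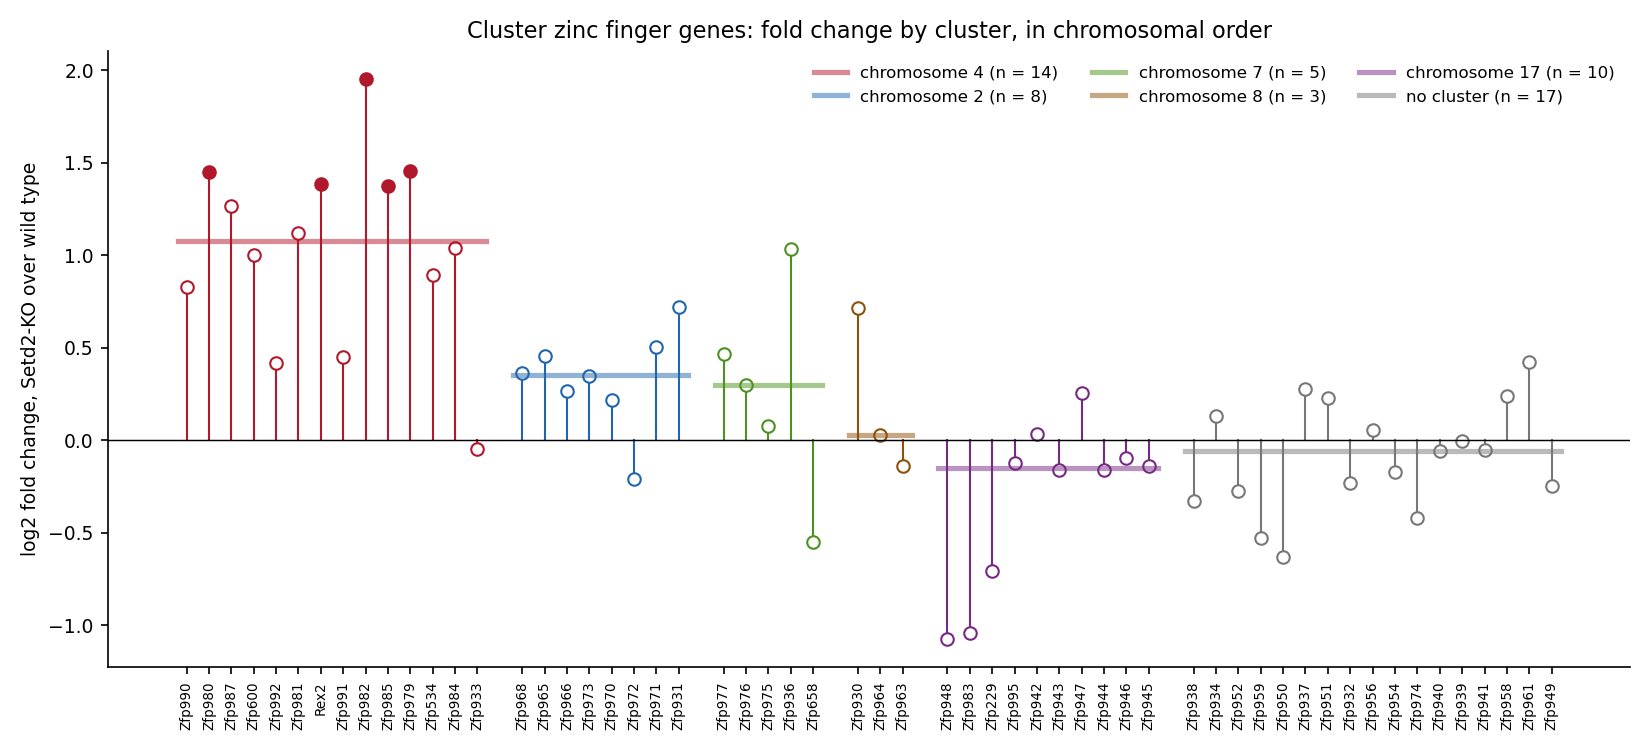
Log2 fold change of Setd2-KO relative to wild type (y axis) for each of the 57 members (x axis), by cluster and in chromosomal order. Filled points have an FDR under 0.05, open points do not, and thick bars are medians. The chromosome 4 cluster has a median of 1.08, against -0.15 on chromosome 17.

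In the chromosome 4 cluster Zfp982 had the highest value, a log2 fold change of 1.95 (3.87-fold, FDR 0.00013 by edgeR's glmTreat) at an average log2 CPM of 1.23. This level was the lowest of the 14. Zfp979 followed with 1.46 (2.74-fold, FDR 0.00059) and Zfp980 with 1.45 (2.73-fold, FDR 0.00057). Rex2 rose by 1.39 (2.62-fold, FDR 0.0018) and Zfp985 by 1.37 (2.59-fold, FDR 0.016). Apart from Zfp982, the upregulated members lay between 1.37 and 1.46, with average log2 CPM between 2.25 and 2.92.

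Zfp987 was the member just beyond the FDR threshold, with a log2 fold change of 1.27 and an FDR of 0.11, whereas Zfp985 was the last one inside it. Zfp981 had 1.12 at an average log2 CPM of 1.35 (FDR 0.88). Zfp984 showed a log2 fold change of 1.04 and Zfp600 one of 1.00, both with an FDR of 1. Such values lie at the limit that the authors' test sets. Smaller ones were listed for Zfp534 (0.89), Zfp990 (0.83), Zfp991 (0.45) and Zfp992 (0.42), which did not pass either. Zfp933 had -0.05. The cluster without Zfp933, its only member below 0, ran from 0.42 to 1.95 with a median of 1.12. The 10 members with the shared promoter word ranged from 0.89 to 1.95, while Zfp991, Zfp992 and Zfp990, whose promoters were not examined, had the next lower values. The word was found by comparing these promoters, and the members were picked with fold changes known. A link between the word and the fold change was therefore not tested.

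Zfp990, Zfp992, Zfp991 and Zfp984 had the highest average log2 CPM of the cluster, at 5.44, 4.64, 4.36 and 4.25. None of these 4 passed the threshold. Divided by the length of the canonical transcript, the order of levels changed: Zfp984 led with 2.75 log2 CPM per kb, followed by Zfp990 with 2.70 and Zfp992 with 2.19, and Zfp981 was last with -1.41. The spread of these levels over the libraries is unknown, so that neighbours in this order cannot be told apart.

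**Figure D2:**
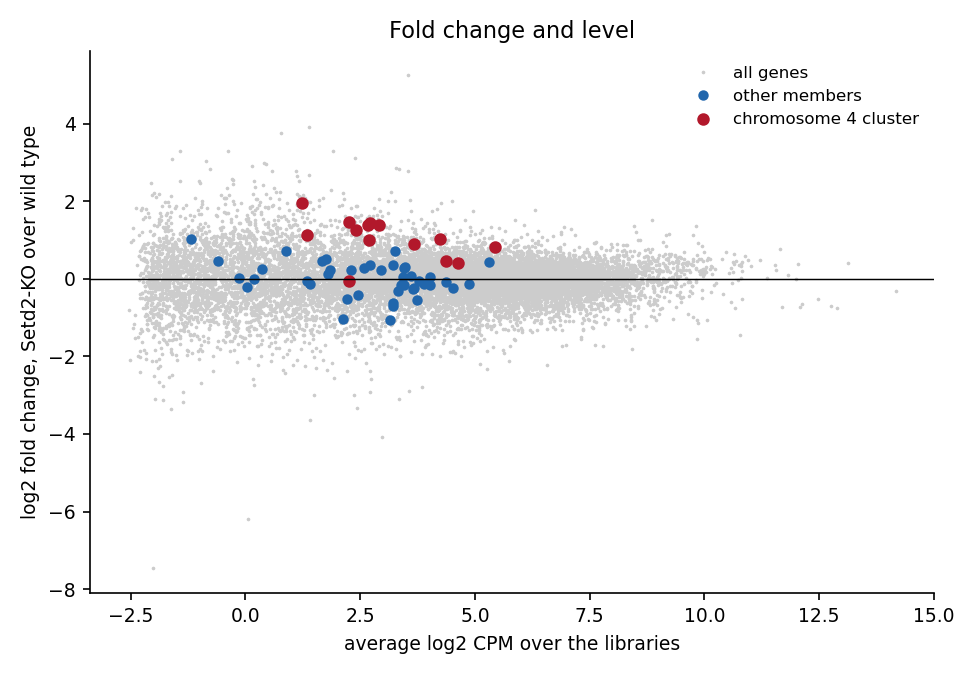
Log2 fold change (y axis) against the average log2 CPM over the 6 libraries (x axis) of all 15095 genes (grey), the chromosome 4 cluster (red) and the other members (blue). The cluster lies between 1.23 and 5.44 on the x axis, with 13 of 14 members above 0.

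On the distal side of the cluster, Zfp984 with 1.04 is followed by Rps19-ps3 (0.03), Zfp933 (-0.05), Miip (-1.07) and Fv1 (-1.29), none of which passed the threshold. These neighbours were named after their values had been seen. The 36 genes within 2 Mb beyond the cluster had a median of -0.07, with 1 called downregulated (Casz1, -1.17, FDR 0.0022) and 3 lower at an unadjusted p under 0.05. The 10 genes within 2 Mb before it had a median of 0.37, at a median average log2 CPM of 0.50, and none was called; at an unadjusted p under 0.05 the count was 0 as well. Among the listed genes, 1 further zinc finger gene lies inside the bounds, Gm13212 (Zfp268 in GENCODE), with a log2 fold change of 1.17 and an FDR of 0.093. The promoter of Gm13212 holds the word shown above. Genes of the same symbol pattern that were not listed, such as Zfp978 and Zfp988, are not among the members. Chromosome 4 outside the cluster bounds had a median of 0.03 over 962 genes. Of these, 16 were upregulated and 16 downregulated, where 1.54% and 2.11% of all genes were.

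**Figure D3:**
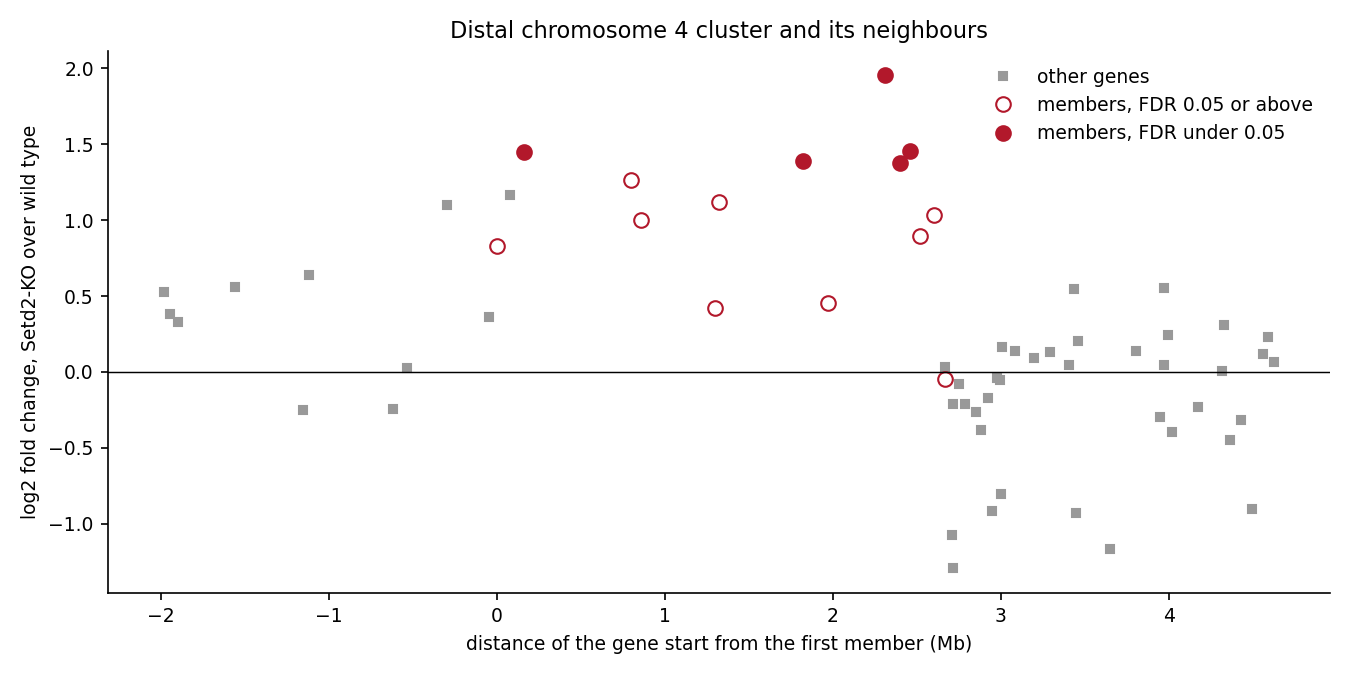
Log2 fold change (y axis) along distal chromosome 4, by distance from the first member in Mb (x axis). Circles are members, filled where the FDR is under 0.05, and grey squares are other genes. Members from Zfp990 to Zfp984 lie between 0.42 and 1.95, and Zfp933 at -0.05 lies with the genes that follow.

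The coding sequences of the cluster were a median of 66.3% identical over 91 pairs (44.8 to 99.5%). Gaps in these alignments count as differences, so that unequal lengths lower the identity. The nearest pair was Zfp991 and Zfp992 at 99.5%, followed by Zfp534 and Zfp987 at 92.3% and Zfp600 and Rex2 at 90.8%. Zfp982 was no closer than 68.8% to any member (Zfp979). By this measure, Zfp933 and Zfp981 were not nearest to a gene of their own cluster. Zfp933 was nearest to Zfp958, at 77.7%, which lies on chromosome 8 in no cluster. Zfp981 was nearest to Zfp995 of the chromosome 17 cluster, at 76.3%, but nearly as close to Zfp979 of its own cluster, at 75.1%. Translated from GENCODE, each of the 14 proteins held the core letters of a KRAB box, and between 3 (Zfp979) and 17 (Zfp600) matches to the cysteine and histidine spacing of a zinc finger, with a median of 11.5. Outside the cluster the KRAB core was found in 34 of 42 coding members, with a median of 11 fingers. Of the upregulated members, Zfp979 has 3 such matches, Zfp982 has 7, Zfp985 has 10, Zfp980 has 13 and Rex2 has 15.

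Near copies make it uncertain to which gene a read belongs. For each member, the share of 100-base windows of its canonical transcript that also occur in a transcript of a gene elsewhere was counted. Rex2 shared 79.0% of its windows, 66.8% with Zfp600, and Zfp600 shared 67.4%, 61.5% with Rex2. For Zfp991, Zfp980, Zfp534 and Zfp992 the shares were 49.4%, 41.7%, 41.4% and 39.1%. Zfp987 shared 32.4%, Zfp984 29.4% (27.9% with Gm13212), Zfp979 15.7% and Zfp981 5.95%. Zfp985 shared 1.94% and Zfp990 1.72%, and Zfp982 and Zfp933 had no shared window. The spans of Zfp979 and Zfp534 overlap on the same strand. Among the 4 members under 5%, Zfp982 and Zfp985 were called upregulated, Zfp990 had 0.83 and Zfp933 had -0.05, with a median of 1.10. The 10 members at or above 5% had a median of 1.08. The fold changes of all 10 members at or above 5%, among them the upregulated Rex2, Zfp980 (33.3% of windows shared with Rex2) and Zfp979, may hold reads of another gene. How the authors' counting divided such reads was not tested.

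**Figure D4:**
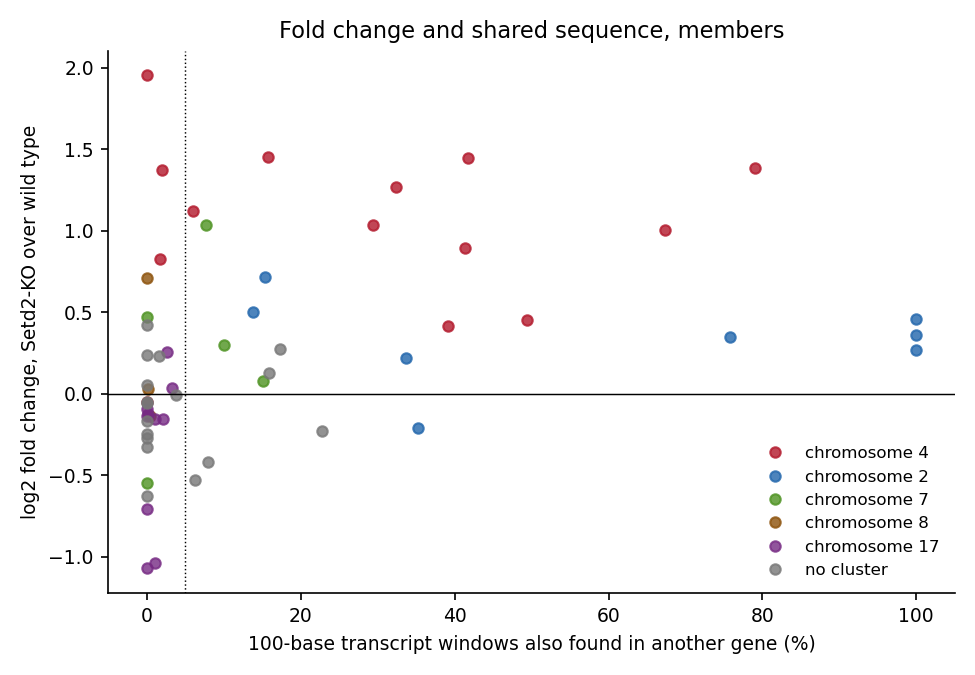
Log2 fold change (y axis) against the percentage of 100-base transcript windows that also occur in another gene (x axis), 1 point per member, coloured by cluster. The dotted line marks 5%. Zfp982, with no shared window, has the highest value (1.95), and the 3 chromosome 2 members at 100% have values between 0.27 and 0.46.

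The chromosome 2 cluster (chr2:175214229-177720294) was the most repetitive, with shares from 13.8 to 100% and a median of 55.5%. Its 8 members had a median log2 fold change of 0.35, with 7 values above 0 and no call. Zfp931 (0.72) and Zfp971 (0.50) were its highest, and their spans overlap on opposite strands. Zfp965 and Zfp973 had identical coding sequences, as did Zfp966 and Zfp968, so that reads within them cannot tell the genes of a pair apart. These 4 members had values between 0.27 and 0.46. Over the whole canonical transcript, Zfp973 shared 75.7% of its windows, and Zfp965, Zfp966 and Zfp968 shared 100%. Zfp972 had -0.21 at an average log2 CPM of 0.02.

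The chromosome 17 cluster (chr17:21787117-23086292) was the least repetitive of the large ones, with no member above 3.2%. Its median was -0.15, with 8 of 10 values below 0. The lowest values of all members lie at its proximal end, side by side: Zfp948 (-1.07, unadjusted p of 0.060 in the authors' edgeR test, FDR 0.96), Zfp983 (-1.04, FDR 1) and Zfp229 (-0.71, FDR 1). None passed the threshold. The other 7 members, from Zfp995 to Zfp945, ranged from -0.16 to 0.26, and Zfp945 had one of the highest levels of all members, an average log2 CPM of 4.86. At the coding level, with gaps counted as differences, genes of this cluster were a median of 62.3% identical to those of chromosome 4 over 140 pairs. They were 61.2% identical to each other over 45 pairs. To the clusters on chromosomes 2, 7 and 8 the medians were 51.0, 56.3 and 55.6%.

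In the chromosome 7 cluster (chr7:42226953-43225569) the median was 0.30, and no member was called. Zfp936 had 1.04, the highest value outside chromosome 4, but at an average log2 CPM of -1.19, the lowest of all members, where fold changes are least precise. Zfp977, also of low level (-0.60), had 0.47. Zfp658 had -0.55 at 3.74. In the chromosome 8 cluster (chr8:69661686-70202640) Zfp930 had 0.71, Zfp964 had 0.03 at an average log2 CPM of -0.15, and Zfp963 had -0.14. The 17 members in no cluster had a median of -0.06 and ranged from -0.63 to 0.42. Zfp961, at 5.30 the second highest level of all members, had the 0.42. The -0.63 belonged to Zfp950 on chromosome 19, whose 509 listed genes had a median of -0.37 themselves.

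Other genes with symbols of Zfp and digits gave a background for the family. Their 276 values had a median of -0.15, with 94 above 0 and 182 below. Among them 1 was upregulated (Zfp345, 1.64, FDR 0.025) and 2 were downregulated (Zfp57 and Zfp663, the latter with -1.21 and an FDR of 0.025), named after their values were seen apart from Zfp57. Over all genes, 1.54% were upregulated and 2.11% downregulated. Of 9 KRAB zinc finger genes with a described function, Zfp57, which keeps methylation at imprinted regions, fell by 1.19 (FDR 0.00015), and the other 8 did not pass.

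Among the partners of KRAB proteins, 0 of 17 corepressor machinery genes passed edgeR's glmTreat at the FDR threshold or at an unadjusted p under 0.05. Their median was 0.10, with a range from -0.50 to 0.62. Over all genes, 1.54% were called higher and 2.11% lower, and 2.54% and 3.43% at the unadjusted p. Lists this short can be without a call at such shares. Trim28, the scaffold itself, had 0.12, Chd4, a chromatin remodeller, -0.20 and the HP1 gene Cbx5 0.07. None of 4 HUSH genes passed at either threshold: Mphosph8, which reads H3K9me3, had 0.57, Morc2a had -0.58 and Pphln1 had 0.07. Of 14 genes chosen for H3K36 and H3K9 methylation at zinc finger genes, 13 were listed and none passed at either threshold. Besides enzymes, this set also holds histone and zinc finger genes. The H3.3 genes H3f3a and H3f3b had 0.46 and 0.15, and the H3K9 methyltransferase gene Ehmt2 had -0.20. The targeted gene Setd2 had -0.44 with an FDR of 1, so that its transcript level does not check the genotype labels.

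Cell type markers differed between the genotypes beside these results. For comparison, 1.54% of all genes were called higher and 2.11% lower. Neural progenitor markers were present at average log2 CPM of 3.56 to 9.82 (9 of 10 listed). Of these, 3 were called lower and 4 had values above 0, with a median of -0.03 and a range from -2.9 to 0.74. All 7 neuron markers had values below 0, with a median of -0.89 and a range from -1.28 to -0.06, and 1 of them passed the threshold. The 9 embryonic stem cell markers had levels from -1.56 to 3.85 and a median fold change of -0.01 on the log2 scale, with 1 called lower. Of 9 markers of the 2-cell-like state, 4 were listed, with values of 0.02 to 0.53 and no call. Of 5 listed germline markers, 4 were called higher (median 2.33, average log2 CPM from -0.41 to 1.29). Of 8 endoderm markers, 4 were called higher and 6 had values above 0, with a median of 1.15 and a range from -0.96 to 2.8. Of 8 mesoderm markers, 1 was called higher and 1 lower. The part of these shifts in the values of the chromosome 4 cluster was not tested. In bulk RNA, fewer cells of a type and less RNA per cell cannot be told apart.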

How the data were processed

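Measured was polyA RNA of NPCs, in 3 samples per genotype. The authors trimmed, aligned and counted the reads, filtered low counts, normalised them with TMM and compared the genotypes with edgeR. The authors' deposited table holds a log2 fold change for each gene, its average log2 CPM over all libraries and a p-value with its FDR, both from glmTreat at a log2 limit of 1. These are columns of the authors' own comparison, used here because the table holds no others. Named in the submitters' processing notes, with no role, are edgeR, STAR, Trim Galore, mm9 and NCBIM37, while the methods name GRCm39 and Salmon. The table holds no counts, so that library depth is unknown.

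The deposited sign is wild type over Setd2-KO and was turned, which was settled from the gene lists of the study. The Benjamini-Hochberg adjustment over all 15095 genes returned the FDR of the table, and calls were made below 0.05. The members and lists were chosen with earlier results of these data known. Named are the genes of the rule, called members, the chromosome 4 cluster, the 4 highest and 4 lowest fold changes outside it, the 3 highest and 3 lowest levels, and, of each list of KRAB partners, described KRAB genes or histone methylation genes, called genes or else the 3 with the highest level. Cell type markers were only counted.

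Positions and transcripts came from GENCODE vM39 by gene ID without version, and promoters from RefSeq (GRCm38.p6); no coordinates were converted. Coding sequences of Ensembl canonical transcripts were aligned globally and promoters locally with Biopython 1.88. The shared promoter word was joined from 4 words of 12 bases found in 10 cluster promoters. The Benjamini-Hochberg adjustment, the linking of clusters and the count of shared windows were tested on simulated data, the other steps were not. All were run in Python 3.11.15 with pandas 2.3.3.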

Additional observations from a re-analysis of the deposited data

How the results depend on the processing

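The count of 5 upregulated members was 4 at an FDR under 0.01, 5 at 0.1 and 5 among genes whose average log2 CPM was 0 or more. It was 1 (Zfp982) with Bonferroni adjustment. Leaving out members of at least 90% coding identity to another gave 4, and keeping only those with under 5% of windows shared gave 2; both alternatives were added after seeing the data. The count of downregulated members was 0 under each of these. With this level filter, after subtracting the median of all genes, with coding identity under 90% and with under 5% of windows shared, in this order, the median of all members (0.22) was 0.17, 0.21, 0.030 and -0.055, the last with the opposite sign. The median of the chromosome 4 cluster (1.08) was 1.08, 1.07, 1.25 and 1.10, and that of the other members (-0.0049) was -0.054, -0.014, -0.055 and -0.12. Linking gaps of 1 Mb and 5 Mb left both cluster medians as they were. The cause of these moves is the set of members left in, except for the subtracted median.

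No paired analysis was possible because the columns used here carry no replicate numbers. Leaving out a library was not run, since no column holds a single library. The alternative based on protein identity was not run and was replaced by coding identity. Low levels, such as those of Zfp936 and Zfp977, limit the precision, which is unknown without counts.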

Other observations

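Other listed genes that lie between the first and last members of the clusters were described by their values. Within the chromosome 2 bounds, 13 of 13 such genes had log2 fold changes above 0, with a median of 0.26 (0.35 for the members there), and 1 was upregulated (Gm14322, 1.55, FDR 0.0043 by edgeR's glmTreat). That gene was named after its value was seen, and 8.11% of the transcript windows of Zfp931 also occur in it. The 2 genes within the chromosome 4 bounds had 1.17 and 0.03. The 3 within the chromosome 17 bounds had a median of 0.06, the 7 on chromosome 7 one of 0.18 and the 3 on chromosome 8 one of -0.11, with no call among them.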
